A study of Mus musculus with 8 samples.

Results

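The interleukin-1 (IL-1) family genes described here were Il1a, Il1b, Il33 and Il18 (ligands), Il1r1, Il1rap and Il1rl1 (signalling receptor chains), and Il1r2, Il1rn and Il18bp (inhibitors). They were chosen by symbol, all 10 were found among the 27998 genes of the matrices, and their expression was read in each cell class of the heart in sham-operated mice and in mice with ischemia–reperfusion (IR). The study operated on male C57BL/6 mice aged 10 to 12 weeks. In the IR group a coronary artery was tied for 30 min and then released, the sham group had surgery without ischemia, and left ventricular cells were taken 6 h after surgery. Both groups had 4 samples, each a pool of 3 hearts. The sample labels give 0 h for sham and do not say whether this means surgery 6 h before.

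Single-cell RNA sequencing gives each cell a barcode and each captured transcript a unique molecular identifier (UMI), so UMIs count captured RNA molecules. No barcode names its sample. Each condition was therefore treated as 1 library, which leaves differences without a check on replicates and without p values. Intervals below are exact 95% intervals and cover counting error only. The sham library held 58653308 UMIs in 11620 barcodes and the IR library 75033226 UMIs in 8539, with 30 barcodes in common. After filtering, 11377 sham and 8260 IR cells remained, with medians of 4649 and 6636 UMIs. Clusters were named from marker genes, and "-like" marks such a name. The largest classes were macrophage/monocyte-like (3760 sham and 2252 IR cells), fibroblast-like (3421 and 1696), neutrophil-like (248 and 2450), B-cell-like (1143 and 748) and mural-like cells (872 and 199). The suspension held only 40 sham and 51 IR cardiomyocyte-like cells.

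IL-1α and IL-1β bind the receptor IL-1R1, which signals once the accessory chain IL-1RAP has joined it. IL-1RA, the product of Il1rn, occupies the receptor without signalling, and IL-1R2 is a decoy that binds IL-1 but lacks a signalling domain. IL-33 uses ST2 (Il1rl1) with the same accessory chain, and IL-18 has its own receptor and a soluble antagonist, IL-18BP. IL-1β and IL-18 are made as precursors that caspase-1 cuts inside the inflammasome, whereas IL-1α and IL-33 are active when released from damaged cells. In the infarcted heart the family is known for drawing in leukocytes and for acting on fibroblasts. The UMIs tag the 3′ ends of transcripts and were not divided by length, so levels are compared between cells and libraries and not between genes.

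On mouse build GRCm38 (mm10), with GENCODE gene bounds, several of the genes are neighbors. Il1a (chr2:129299610-129309972) and Il1b (chr2:129364570-129371139) lie side by side on the minus strand, and Il1rn (chr2:24336853-24351494) lies on the plus strand of the same chromosome. Il1r2 (chr1:40074079-40125231), Il1r1 (chr1:40225080-40317257) and Il1rl1 (chr1:40429570-40465415) follow each other on the plus strand. The others are Il33 (chr19:29925114-29960718), Il18 (chr9:50554827-50581840), Il18bp (chr7:102014885-102018690) and Il1rap (chr16:26581704-26730117).

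The sequences before the transcription starts of Il1a, Il1b and Il33 are shown because these 3 of the 4 ligands were past 2-fold higher in IR over all cells. They are the 250 bases before the start in RefSeq's promoter table (GRCm38.p6), 5′ to 3′ on the gene's strand, with matches to the searched motifs in capitals. Il1a is at chr2:129309973-129310222 (minus), Il1b at chr2:129371140-129371389 (minus), and the second of 2 Il33 starts at chr19:29945540-29945789 (plus). The second Il33 start was chosen after the search, because its match lies near the start.
Il1a: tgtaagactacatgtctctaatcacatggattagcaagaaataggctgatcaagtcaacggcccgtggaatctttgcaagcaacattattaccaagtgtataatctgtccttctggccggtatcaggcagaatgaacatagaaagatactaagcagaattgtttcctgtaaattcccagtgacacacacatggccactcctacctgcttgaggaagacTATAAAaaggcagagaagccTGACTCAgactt
Il1b: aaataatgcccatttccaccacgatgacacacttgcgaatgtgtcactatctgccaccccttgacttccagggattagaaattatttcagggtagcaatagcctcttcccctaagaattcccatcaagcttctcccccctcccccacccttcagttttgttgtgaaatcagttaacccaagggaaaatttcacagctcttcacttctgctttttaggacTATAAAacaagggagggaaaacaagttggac
Il33 second start: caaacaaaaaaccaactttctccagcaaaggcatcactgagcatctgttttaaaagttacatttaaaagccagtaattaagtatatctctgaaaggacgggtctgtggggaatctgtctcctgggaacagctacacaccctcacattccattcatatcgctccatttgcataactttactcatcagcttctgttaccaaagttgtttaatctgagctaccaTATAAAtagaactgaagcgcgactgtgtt
The capitals mark TATAAA, the TATA box, which began at -32 in Il1a, -31 in Il1b and -29 in the Il33 sequence shown, counted from the start site, and TGACTCA, the AP-1 motif, which began at -12 in Il1a. The first Il33 start, not shown, had TATAAA at -203. Searched on both strands in the 15 start sites of the 10 genes, TATAAA was found in 5 and TGACTCA in 2. In all 32851 promoters of the table, TATAAA was found in 12.4% and TGACTCA in 4.46%. An NF-κB motif (GGGA, any 2 bases, TTCC) and TGACGTCA, the cyclic AMP response element bound by ATF family proteins, were found in none of the 15, against 1.21% and 1.55% of all promoters. The motifs do not overlap in the sequences shown. A match is a string of letters and not a measured site.

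Over all cells, transcripts of 7 of the 10 genes were past 2-fold higher in IR than in sham and none was past 2-fold lower. Of all 15340 genes with at least 20 UMIs, 8.14% were past 2-fold higher and 19.7% past 2-fold lower. Il1a went from 3.73 to 183 CPM (the gene's UMIs per 1000000 UMIs of the cells), Il1rn from 13.9 to 536, Il1r2 from 18.5 to 332, Il33 from 12.9 to 100.5 and Il1b from 733 to 5496. Il1rap went from 14.3 to 75.7 CPM and Il1r1 from 21.5 to 50.4. The other 3 genes stayed within 2-fold. Il1rl1 went from 7.87 to 6.09 CPM (log2 ratio -0.37, -0.56 to -0.18), Il18 from 17.5 to 13.3 (-0.40, -0.53 to -0.28) and Il18bp from 9.43 to 5.06 (-0.90, -1.09 to -0.71). These log2 ratios are read against a median of -0.25 over genes with at least 20 UMIs in both libraries, which was -0.12 in macrophage/monocyte-like and -0.33 in neutrophil-like cells. In such sums more cells of a type and more RNA per cell cannot be told apart, and neutrophil-like cells were 2.18% of the sham and 29.7% of the IR cells. With cells of over 2500 genes left out, Il1r1 and Il33 turned to lower in IR over all cells (log2 ratios of -0.94 and -0.48). The limit is one that the methods name and that was not applied here. It takes out 86.9% of the IR and 14.6% of the sham fibroblast-like cells, which hold most of both transcripts.

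**Figure D1:**
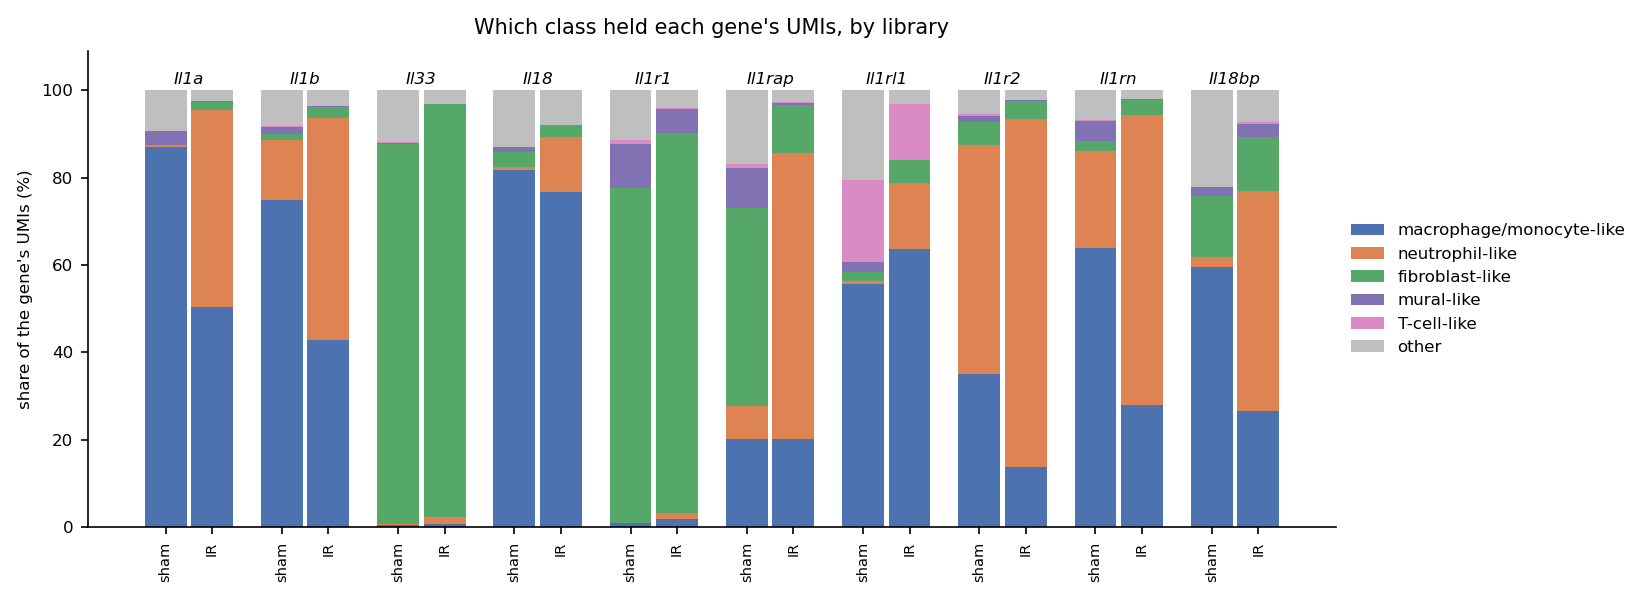
Share of each gene's UMIs (percent, y axis) held by each cell class in the sham and IR libraries (stacked bars, sham left and IR right of each pair, kept cells only). Il33 and Il1r1 lay in fibroblast-like cells in both libraries, and neutrophil-like cells held 50.7% of the Il1b and 79.7% of the Il1r2 UMIs in IR.

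The genes fell into few cell classes. Macrophage/monocyte-like cells held 75.0% of the Il1b UMIs in sham and 42.9% in IR, where neutrophil-like cells held 50.7% against 13.6% in sham. Neutrophil-like cells also held 66.6% of the Il1rn UMIs in IR, 79.7% of Il1r2 and 65.3% of Il1rap. In sham, fibroblast-like cells held the most Il1rap, with 45.3%. Il33 and Il1r1 were fibroblast transcripts in both conditions, with 87.1% and 94.6% of the Il33 UMIs and 76.7% and 87.1% of the Il1r1 UMIs in fibroblast-like cells of sham and IR. Il18 was mostly a macrophage/monocyte transcript, with 81.8% of its UMIs in sham and 76.8% in IR.

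**Figure D2:**
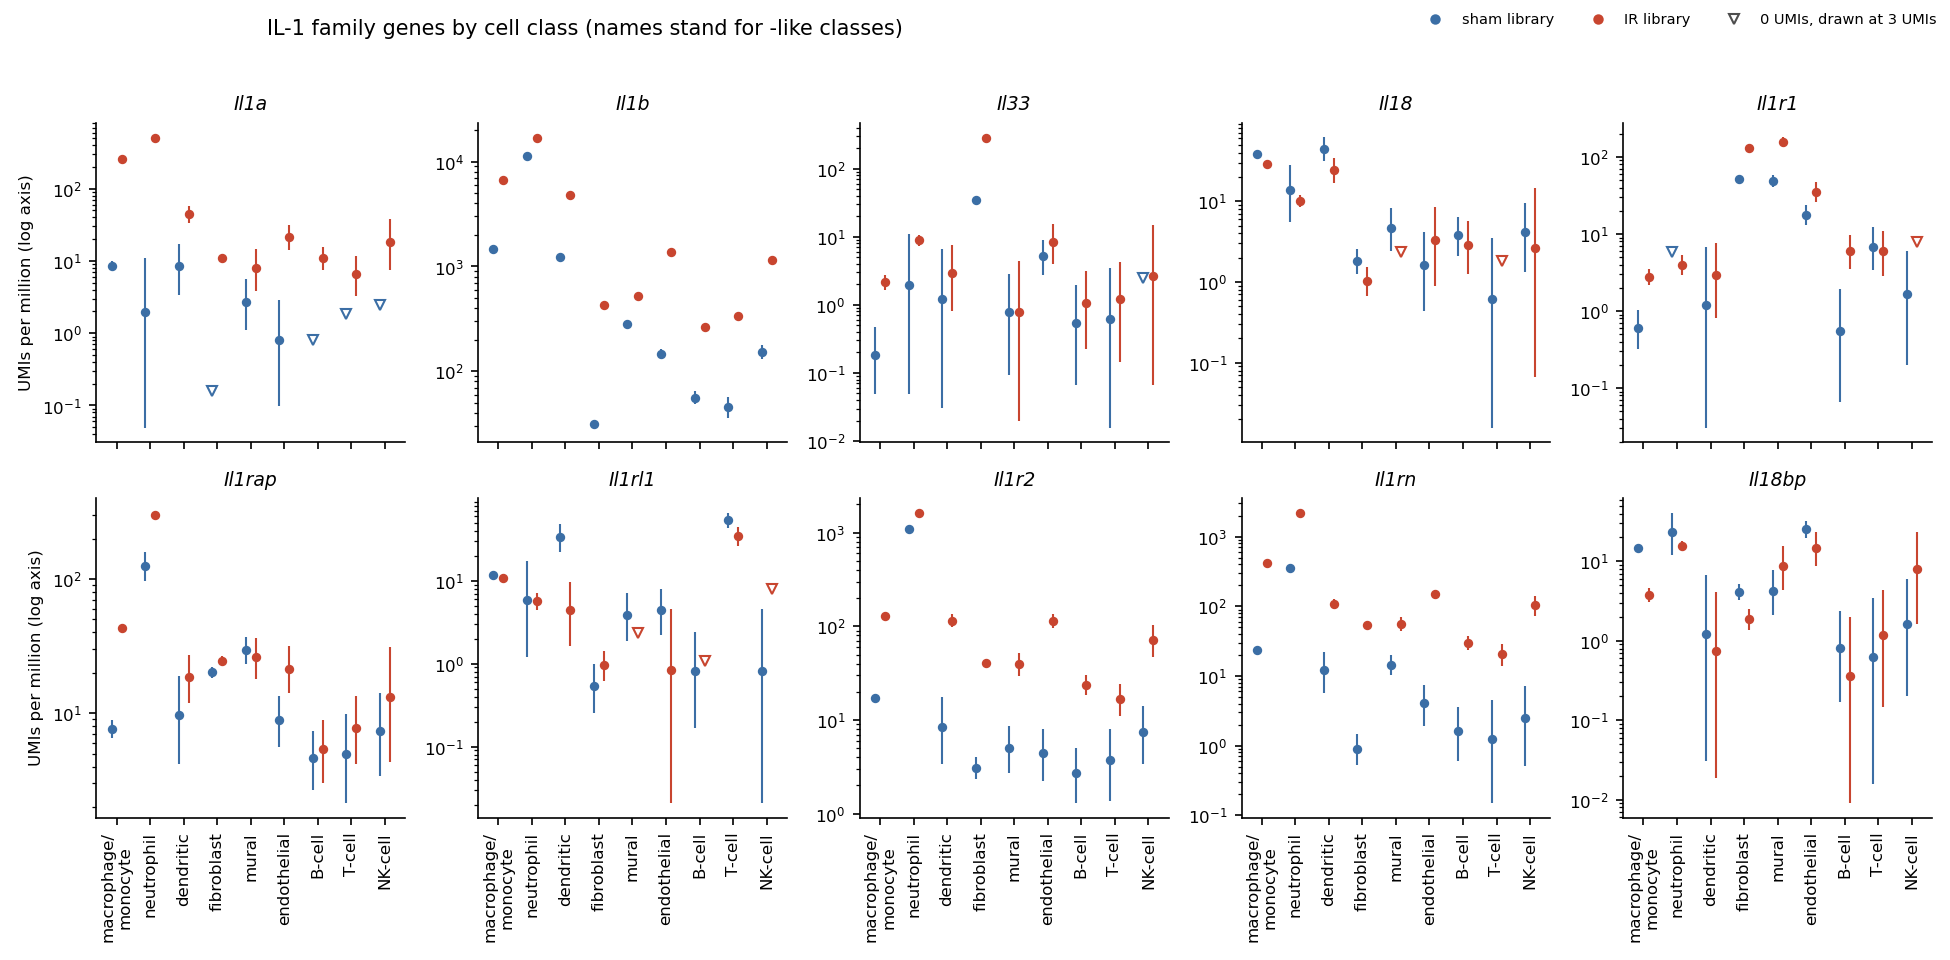
CPM (y axis, log scale) of each gene in 9 cell classes of the sham (blue) and IR (red) libraries, with exact 95% intervals for counting error. Il1b was highest in neutrophil-like cells of both libraries, while Il33 reached 282 CPM in IR fibroblast-like cells and at most 8.84 in the other classes drawn.

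Transcripts of neutrophils were found in every class, so B-cell-like cells, which should lack them, were used as a reference for free RNA. In B-cell-like cells Il1b was at 56.1 CPM in sham and 262 in IR, and the neutrophil transcript S100a8 at 22.0 and 368. Each cell was thinned to 1000 UMIs, after which 3.11% of the sham and 19.1% of IR B-cell-like cells held an Il1b UMI (6.47% and 54.0% unthinned, median depths 2138 and 3335 UMIs, 18 and 32 shallower cells left out). The thinned share in IR was 16.5% in fibroblast-like cells (73.9% unthinned, median depth 13744 UMIs) and 18.5% in mural-like cells (56.8% unthinned, 5428 UMIs). It was 21.5% in endothelial-like cells, with an interval of 14.8% to 29.6% that holds the B-cell-like share. The thinned shares of the stromal classes were thus not separable from the B-cell-like share or were below it, although their CPM in IR was above the 262 of B-cell-like cells, at 427 in fibroblast-like, 524 in mural-like and 1382 in endothelial-like cells. No expression of Il1b by stromal cells is read from these values, and the part of free RNA in them was not tested.

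Il1b, which encodes the main secreted IL-1, was highest in neutrophil-like cells and had its largest ratio among myeloid classes in macrophage/monocyte-like cells. In neutrophil-like cells it was at 11338 CPM (11048 to 11633) in sham and 16947 (16874 to 17020) in IR, a log2 ratio of 0.58 (0.54 to 0.62). In macrophage/monocyte-like cells it went from 1462 to 6624 CPM (log2 ratio 2.18, 2.16 to 2.20), and in dendritic-like cells from 1241 to 4764 (1.94, 1.85 to 2.04). After thinning, 43.6% of sham and 68.1% of IR macrophage/monocyte-like cells held a UMI (63.4% and 91.6% unthinned, median depths 5009 and 11724 UMIs, 25 and 8 cells left out). In neutrophil-like cells it was 97.9% and 99.1% (98.8% and 99.6% unthinned, median depths 1632 and 3984, 14 and 121 cells left out). Nearly all neutrophil-like cells thus held Il1b in both libraries, and the CPM intervals of sham and IR did not overlap in any of the 3 classes.

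Different clusters made up the myeloid classes in the 2 libraries, so the class values were split. A macrophage-like cluster led by Lyve1, Cbr2 and Cd163, here the Lyve1 cluster, had 1823 sham and 365 IR cells, and here Il1b was lower in IR, at 591 CPM against 2008 in sham (log2 ratio -1.76, -1.83 to -1.70). At a clustering resolution of 1.5 it divided in 2, a split read after the data were seen. A part led again by Lyve1 (802 sham and 190 IR cells) had 576 CPM of Il1b in sham and 262 in IR (-1.14, -1.27 to -1.005). A part led by H2-Eb1 and H2-Ab1, which encode MHC class II chains (987 and 172 cells), had 3426 and 1170.0 (-1.55, -1.62 to -1.48). By CPM, Il1b in sham was thus higher in the MHC class II-led cells, and it was lower in IR in both parts. The unthinned share of cells with an Il1b UMI went the other way in the Lyve1-led part, from 43.9% to 75.3%. In the other part it was 88.9% and 84.9%, and no thinned share is given for either. The 262 CPM of the Lyve1-led part in IR was also the level of B-cell-like cells. Another macrophage-like cluster, led by Cd72, Aif1 and also by Ifnb1, held 1275 sham and 9 IR cells and had 974 CPM of Il1b in sham. It scored highest for the MHCII macrophage markers, but Cd72 was the only 1 of them among its leading genes, so it is called here by Cd72. Ly6c2 monocyte-like cells, 41 in sham and 1116 in IR, went from 1632 to 9965 CPM (2.61, 2.50 to 2.72). Their cluster was led by Chil3, F10 and Ccr2, without Ly6c2 itself among its leading genes. With the limit of 2500 genes, a cluster also led by Chil3, Saa3 and F10 was named Thbs1/Arg1 macrophage-like. Nonclassical monocyte-like cells, 421 in sham and 118 in IR, went from 1489 to 11107 CPM (2.90, 2.85 to 2.95). The leading genes of this cluster included Ly6c2 and Plac8, listed as Ly6c2 monocyte markers. Adgre4, Treml4 and Cd300e, listed for nonclassical monocytes, were also among them. Both names are thus marker scores that the leading genes match only in part. The Lpl/Gdf15 macrophage-like cluster, 25 and 618 cells, had 1680 and 2217 CPM (0.40, 0.20 to 0.61). A cycling macrophage-like cluster of 136 sham and 20 IR cells had a log2 ratio of 0.23. The highest Il1b of the class in IR was thus in the 2 monocyte-like clusters, whereas the Lyve1 cluster was lower than in sham. S100a8 was at 10.2 CPM in sham and 159 in IR in the Lyve1 cluster, and at 2302 and 5474 in the nonclassical monocyte-like cluster. The part of free RNA in these values was not tested.

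Neutrophil-like cells consisted of 3 clusters. A Retnlg/Mmp8 cluster (71 sham and 1010 IR cells) had 6760 CPM of Il1b in sham and 15175 in IR (1.17, 1.09 to 1.24). A cluster of 176 sham and 7 IR cells, led by the interferon-induced genes Slfn4, Rsad2 and Ifit1, had 14681 CPM in sham. By its markers this cluster also scored as Retnlg/Mmp8, but it is called here by its interferon genes. Values given for the Retnlg/Mmp8 cluster, such as the ratio of 1.17, thus leave out 176 of the 248 sham neutrophil-like cells. A Cxcl3/Spp1 cluster (1 sham and 1433 IR cells) had 17768 in IR. The make-up of the class thus differed between the libraries, and the Retnlg/Mmp8 cluster was the only 1 of the 3 with at least 20 cells of both.

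**Figure D3:**
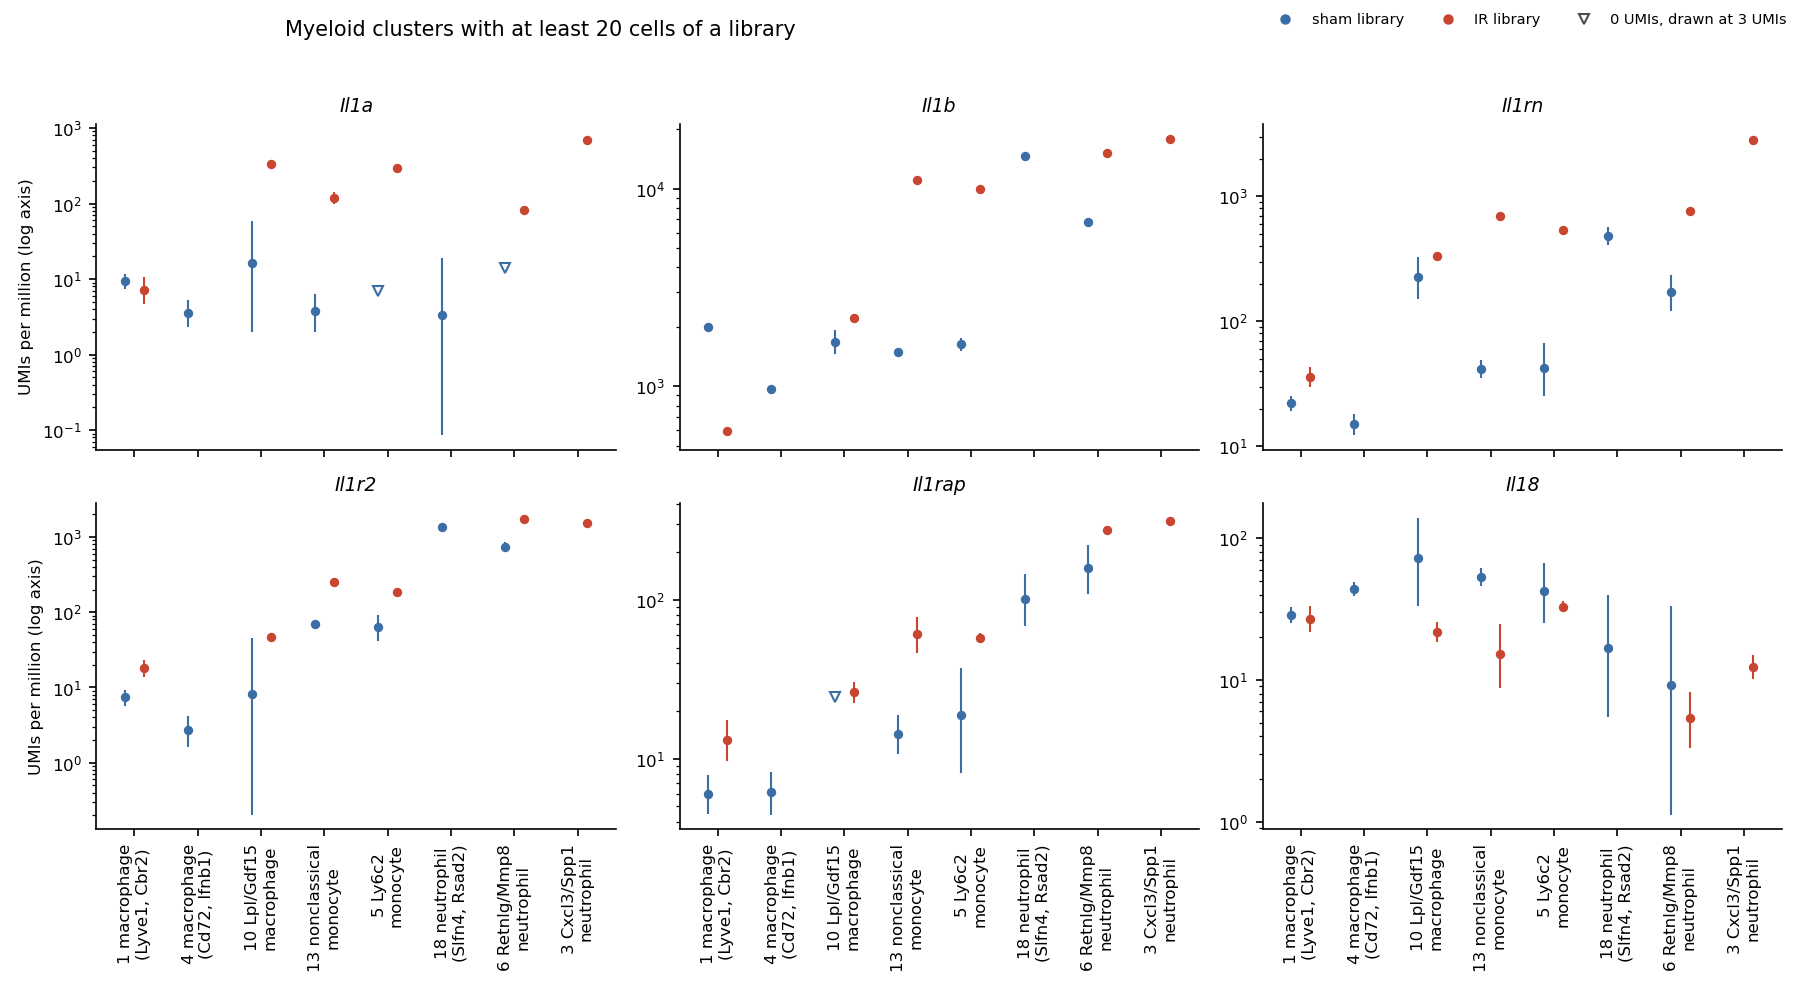
CPM (y axis, log scale) of 6 genes in macrophage-, monocyte- and neutrophil-like clusters (named on the x axis) of the sham (blue) and IR (red) libraries, with exact 95% intervals, for clusters with at least 20 cells of a library. Il1b was lower in IR in the Lyve1 cluster (591 against 2008) and higher in both monocyte-like clusters.

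Il1a, which encodes the alarmin IL-1α, had 217 UMIs in all sham cells and was held in IR by macrophage/monocyte-like (50.4%) and neutrophil-like cells (45.1%). In macrophage/monocyte-like cells it was at 8.64 CPM in sham and 258 in IR (log2 ratio 4.90, 4.69 to 5.12). Neutrophil-like cells had 1 Il1a UMI in sham and 6117 in IR, 1.95 and 500 CPM, a ratio of 257 with a log2 interval of 5.53 to 13.31. Within neutrophil-like cells of IR it was at 699 CPM in the Cxcl3/Spp1 cluster and 81.5 in the Retnlg/Mmp8 cluster, with intervals (681 to 717 and 72.8 to 91.0) that did not overlap. Ly6c2 monocyte-like cells had 0 UMIs in sham, where 3 UMIs would be 7.06 CPM, and 297 CPM in IR, and Lpl/Gdf15 macrophage-like cells had 2 UMIs (16.2 CPM) in sham and 330 CPM in IR. In the Lyve1 cluster Il1a was at 9.29 CPM in sham and 7.14 in IR, a difference within counting error (-0.38, -1.09 to 0.28). In sham the highest level, 100 CPM (75.7 to 131), was in a cluster of 39 macrophage-like cells led by Alox15, Cd5l and Serpinb2. B-cell-like cells had 11.1 CPM in IR.

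Il1rn, the receptor antagonist, was higher in IR in the same 2 myeloid classes, with larger ratios than Il1b. It went from 23.6 to 420 CPM in macrophage/monocyte-like cells (4.15, 4.03 to 4.28) and from 351 to 2171 in neutrophil-like cells (2.63, 2.42 to 2.85). By cluster, it went from 42.3 to 541 CPM in Ly6c2 monocyte-like (3.68, 3.01 to 4.43) and from 41.6 to 701 in nonclassical monocyte-like cells (4.08, 3.82 to 4.34). It stayed within 2-fold in the Lyve1 cluster, at 22.1 and 36.0 (0.70, 0.37 to 1.03), and in the Lpl/Gdf15 cluster, at 227 and 331.5 (0.55, 0.01 to 1.14). It was highest in the Cxcl3/Spp1 neutrophil-like cluster, at 2837 CPM, against 767 in the Retnlg/Mmp8 cluster of the same library. Il1rn is among the 10 leading genes of the first of these clusters, although it was kept out of the genes used for clustering. For every 100 UMIs of Il1b, neutrophil-like cells held 3.09 of Il1rn in sham and 12.8 in IR, and macrophage/monocyte-like cells 1.61 and 6.33. In IR the Cxcl3/Spp1 cluster held 15.97 and the Lpl/Gdf15 macrophage-like cluster 14.96 (13.5 in its 25 sham cells), while the Ly6c2 monocyte-like cluster held 5.43 and the Retnlg/Mmp8 cluster 5.05. For each UMI of the ligand, those first 2 clusters thus held more of the antagonist than the other 2.

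Il1r2, the decoy receptor, was a neutrophil transcript in both libraries. Neutrophil-like cells had 1102 CPM in sham and 1608 in IR (0.54, 0.42 to 0.67), and 58.1% and 71.5% of them held a UMI after thinning (77.0% and 92.7% unthinned). In the Retnlg/Mmp8 cluster alone it was at 741 and 1726 (1.22, 0.99 to 1.45), and the interferon-gene cluster of sham had 1351. The next level was in macrophage/monocyte-like cells, 17.2 CPM in sham and 128 in IR (2.89, 2.73 to 3.05). Among these, the nonclassical monocyte-like cluster had 68.9 and 252 and the Ly6c2 monocyte-like cluster 63.5 and 185. B-cell-like cells had 2.71 and 23.7 CPM. After thinning, 8.07% of IR macrophage/monocyte-like cells held an Il1r2 UMI (38.1% unthinned) against 2.24% of B-cell-like cells (8.16% unthinned).

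The signalling receptor Il1r1 was at background in the classes with the most Il1b and Il1a. Neutrophil-like cells had 0 UMIs in sham, where 3 UMIs would be 5.84 CPM, and 4.01 CPM in IR. Macrophage/monocyte-like cells had 0.594 and 2.76 CPM. In B-cell-like cells it was at 0.542 and 6.10 CPM, so these levels are read as background, although the ratio in macrophage/monocyte-like cells is past 2-fold. In neutrophil-like cells of IR there were 401 UMIs of the decoy for each UMI of Il1r1, and in fibroblast-like cells 0.315. The first ratio rests on 49 Il1r1 UMIs, at the level read as background. In fibroblast-like cells Il1r2 and the neutrophil transcript S100a8 were both higher in IR, as given below, so neither ratio is read as a balance of the receptors.

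Il1r1 was instead a stromal transcript and was higher in IR in fibroblast- and mural-like cells. Fibroblast-like cells went from 51.4 CPM (48.2 to 54.7) to 130 (126 to 135), a log2 ratio of 1.34 (1.24 to 1.45). Mural-like cells went from 49.2 to 156 (1.67, 1.34 to 2.0). In IR the order was mural-like, fibroblast-like and endothelial-like cells, the last at 17.8 in sham and 35.6 in IR (1.002, 0.36 to 1.64), and in sham fibroblast-like and mural-like cells did not differ beyond their intervals. The fibroblast ratio compares largely different clusters. In cluster 0, with 3405 sham and 47 IR cells, Il1r1 was at 51.2 and 60.4 CPM (0.24, -0.37 to 0.79), and the 2 clusters with nearly all IR fibroblast-like cells were at 138 and 115 in IR. A mural-like cluster led by Vtn, Kcnj8, Abcc9 and Rgs5 (625 sham and 116 IR cells) had 58.2 and 155 CPM (1.41, 0.93 to 1.89), and one led by Tagln, Acta2 and Myh11 (247 and 83) had 38.4 and 157 (2.03, 1.53 to 2.55). After thinning, 5.33% of sham and 12.7% of IR fibroblast-like cells held an Il1r1 UMI (23.5% and 68.3% unthinned), and 5.26% and 14.04% of mural-like cells (12.8% and 48.7% unthinned). B-cell-like cells had 0.0889% and 0.279% (0.175% and 1.20% unthinned). In endothelial-like cells the thinned share was 2.04% in sham and 0.769% in IR (9.69% and 18.7% unthinned), against the direction of the CPM, and no direction is read there.

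**Figure D4:**
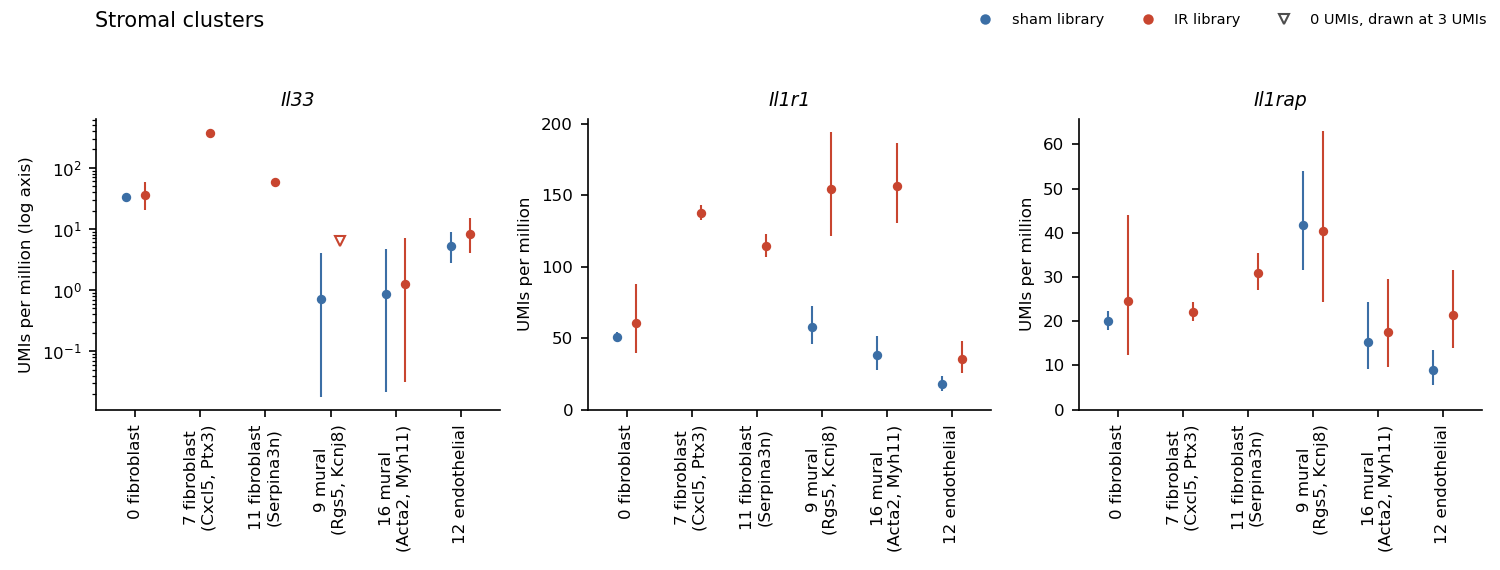
CPM (y axes, log scale for Il33 and linear from 0 for Il1r1 and Il1rap) in fibroblast-, mural- and endothelial-like clusters (x axis) of the sham (blue) and IR (red) libraries with exact 95% intervals, for clusters with at least 20 cells of a library. Il33 was at 376 CPM in the Cxcl5/Ptx3 cluster and 57.7 in the Serpina3n cluster of IR, whereas Il1r1 was at 138 and 115.

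Il33, the alarmin ligand of ST2, was held mostly by fibroblast-like cells and was 8.04-fold higher there in IR. Fibroblast-like cells had 35.1 CPM (32.4 to 37.9) in sham and 282 (275 to 289) in IR, a log2 ratio of 3.01 (2.89 to 3.13). With the limit of 2500 genes the log2 ratio was 2.096. After thinning, 3.32% of sham and 13.4% of IR cells of the class held a UMI (13.8% and 38.7% unthinned), against 0.279% of B-cell-like cells in IR (0.401% unthinned). The libraries shared few fibroblast cells of a cluster: cluster 0 held 3405 sham and 47 IR cells, cluster 7 held 11 and 1061, and cluster 11 held 5 and 588. Cluster 7, led by Cxcl5, Ptx3, Csf2 and Timp1, had 376 CPM of Il33, and cluster 11, led by Serpina3n, Adamts5 and Scara5, had 57.7. The 47 IR cells of cluster 0 had 35.8 CPM against 33.1 in its sham cells (0.11, -0.70 to 0.83), and these IR cells also had 1083 CPM of Il1b against 29.0 in sham. Il33 in IR was thus unequal among fibroblast-like cells, with most of it in 1 cluster. Mesothelial-like cells, 24 in sham and 3 in IR, had 66.6 and 1395 CPM, from 15 and 121 UMIs. Endothelial-like cells had 5.25 and 8.27 CPM. Neutrophil-like cells had 1 Il33 UMI in sham and 108 in IR, and the interval of their log2 ratio (-0.33 to 7.50) includes no difference.

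Il1rap, the accessory chain shared by both receptors, was measured in stroma and in neutrophils. In neutrophil-like cells it was at 125 CPM (96.0 to 159) in sham and 301 (291 to 311) in IR, a log2 ratio of 1.27 (0.92 to 1.65). Within the Retnlg/Mmp8 cluster the ratio was 0.80 (0.30 to 1.33), inside 2-fold. In macrophage/monocyte-like cells it went from 7.63 to 43.1 (2.50, 2.26 to 2.74), with 60.4 and 57.8 in the nonclassical and Ly6c2 monocyte-like clusters of IR. In fibroblast-like cells it was at 20.1 and 24.6 (0.29, 0.10 to 0.48) and in mural-like cells at 29.7 and 26.0 (-0.19, -0.83 to 0.42). Fibroblast- and mural-like cells, with more Il1r1 in IR, thus did not have 2-fold more Il1rap. In endothelial-like cells Il1rap went from 8.88 to 21.5 (1.28, 0.40 to 2.16), from 22 and 26 UMIs. In Schwann-cell-like cells, 54 in sham and 16 in IR, it was at 115 and 423 CPM from 19 and 35 UMIs.

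Il1rl1, which encodes ST2, was rare and stayed within 2-fold in macrophage/monocyte-like cells, at 11.7 CPM in sham and 10.9 in IR (-0.10, -0.35 to 0.15). These cells held 55.7% and 63.6% of its UMIs. The Lyve1 cluster had 17.6 and 30.8 CPM (0.81, 0.44 to 1.18), the Lpl/Gdf15 cluster 24.0 in IR, and Ly6c2 monocyte-like cells 0.950 in IR. The highest class level was in T-cell-like cells, 53.4 in sham and 34.8 in IR (-0.62, -1.12 to -0.12). When these cells were clustered again, a step added after the data were seen, 143 of their 144 Il1rl1 UMIs lay in 1 subcluster of 133 cells. It had 247 CPM (198 to 305) in 95 sham cells and 262 (199 to 340) in 38 IR cells, intervals that overlap, and was led by Calca, S100a4, Csf2 and Il1rl1 itself. It also held 169 UMIs of Gata3, 77 of Il5 and 45 of Il13, genes of type 2 lymphocytes. It held 130 of the T-cell gene Cd3e, while Il17rb and Hpgds, listed as markers with Gata3, Il5 and Il13, had 6 and 1. The highest marker score of this subcluster was 0.519, for macrophage/monocyte cells from 3 markers, and it was given no name. With high doublet scores removed, a cluster of 59 cells could be named ILC2-like (group 2 innate lymphoid cells) from markers that do not include Il1rl1, and it had 586 CPM (469 to 724) in 50 sham cells and 1009 (752 to 1327) in 9 IR cells, intervals that do not overlap. Dendritic-like cells had 33.8 CPM in sham and 4.45 in IR, from 28 and 6 UMIs. Fibroblast-like cells, with the most Il33, had 0.536 and 0.957.

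Il18, the IL-18 precursor, and its antagonist Il18bp were not past 2-fold higher in either myeloid class. Il18 was at 38.2 CPM in sham and 28.6 in IR in macrophage/monocyte-like cells (-0.42, -0.56 to -0.27), which is within 2-fold. It was lower in nonclassical monocyte-like cells, at 15.4 against 53.7 (-1.81, -2.64 to -1.07), and not separable from sham in the Lyve1 cluster, at 27.1 against 28.9 (-0.09, -0.45 to 0.25). Il18 was also lower in the Lpl/Gdf15 cluster (-1.73, -2.70 to -0.58), from 9 sham and 145 IR UMIs. In neutrophil-like cells Il18 was at 13.6 and 10.1 CPM (-0.43, -1.51 to 0.92). Mesothelial-like cells of sham had 93.2 CPM of Il18 and 79.9 of Il18bp, the highest sham levels of the classes, from 21 and 18 UMIs. Il18bp was lower in IR in macrophage/monocyte-like cells, from 14.9 to 3.77 CPM (-1.99, -2.32 to -1.66) and in fibroblast-like cells from 4.12 to 1.88 (-1.14, -1.69 to -0.60). Of its 327 sham UMIs in the first class, 186 lay in the Cd72 cluster, which had 26.6 CPM in sham and only 9 cells in IR. In the Lyve1 cluster it was at 5.33 and 4.57 (-0.22, -1.14 to 0.62). Neutrophil-like cells had 23.4 CPM of Il18bp in sham and 15.5 in IR (-0.60, -1.435 to 0.38). They held 2.19% of its UMIs in sham and 50.3% in IR. Endothelial-like cells had 25.4 CPM in sham and 14.9 in IR (-0.77, -1.62 to 0.00). Mural-like cells had 11 UMIs in each library, 4.29 and 8.67 CPM (1.01, -0.33 to 2.36).

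**Figure D5:**
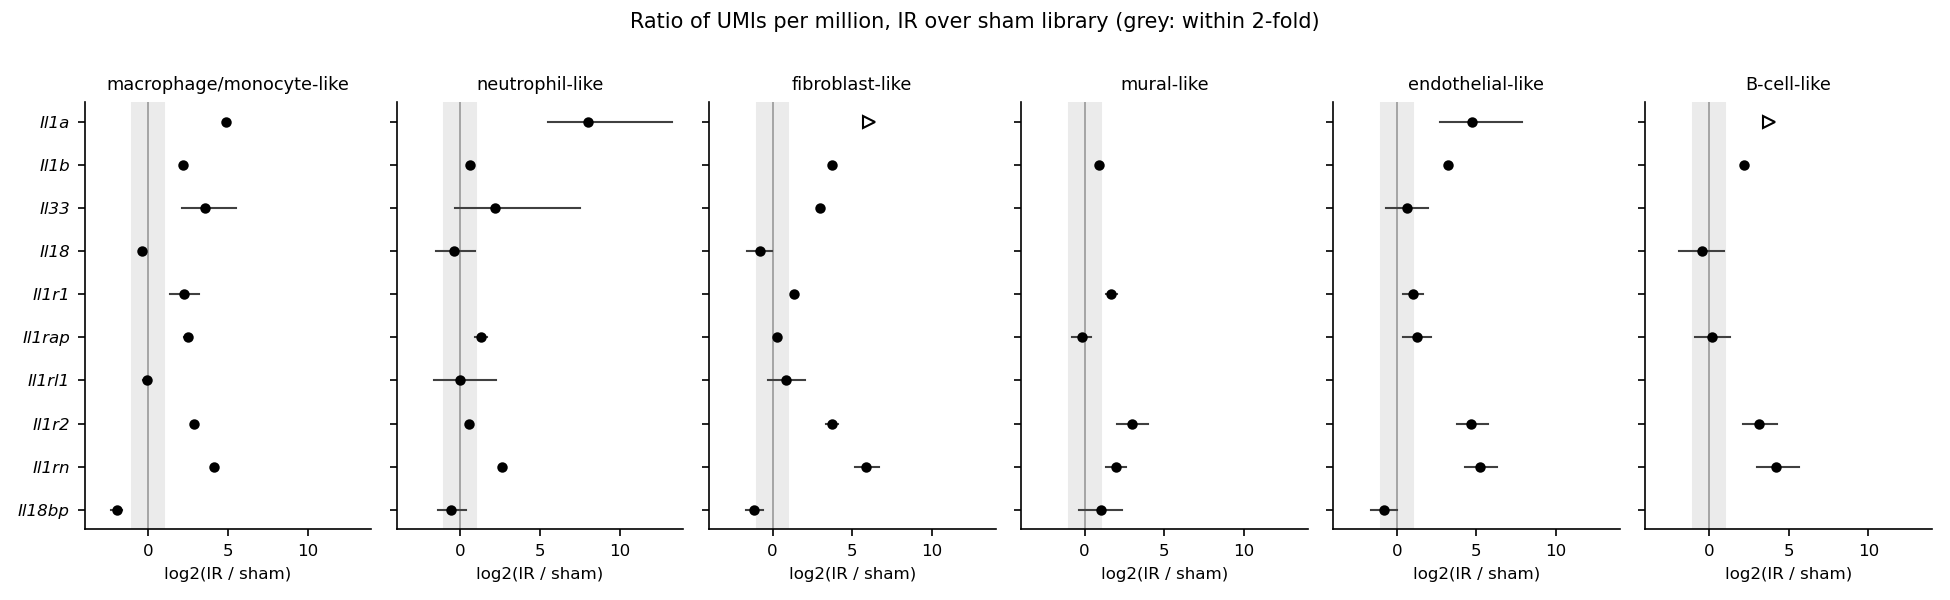
Log2 ratio of CPM, IR over sham (x axis), for each gene with at least 20 UMIs in 6 classes, with exact 95% intervals for counting error. Open triangles are lower bounds where sham had 0 UMIs (set to 3) and the grey band is within 2-fold. Il1a, Il1b, Il1rn and Il1r2 also lay to the right of the band in B-cell-like cells, the class used as a reference for free RNA.

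By class, 7 of the 10 genes were past 2-fold higher and Il18bp was lower in macrophage/monocyte-like cells, against 8.15% and 15.5% of 12521 genes. The 7 were Il1a, Il1b, Il1rn, Il1r1, Il1r2, Il1rap and Il33, of which Il1r1 and Il33 were at levels of the B-cell-like cells (Il33 at 2.15 against 1.08 CPM in IR). In neutrophil-like cells Il1a, Il1rn, Il1rap and Il33 were past 2-fold higher and none was lower, against 12.7% and 15.2% of 8995 genes. In fibroblast-like cells 6 genes were higher and Il18bp was lower, against 12.1% and 15.8% of 13065 genes. Of those 6, Il33 and Il1r1 were described above. The other 4 were Il1a (0 sham UMIs and 10.9 CPM in IR, at least 67.8-fold higher), Il1b (31.5 and 427 CPM), Il1rn (0.910 and 53.7) and Il1r2 (3.11 and 41.0). S100a8 was also higher in IR in these cells, at 78.1 and 654 CPM. The 9 neutrophil markers, all detected, had a summed level of 1009 and 2338 CPM. Il1b was 13.5-fold, Il1r2 13.2-fold and Il1rn 59.0-fold higher, larger differences than those of S100a8 and of the marker sum. The part of neutrophil transcripts in the result was not tested. In mural-like cells 4 of 6 genes counted were higher (Il1rn, Il1r1, Il1r2 and Il18bp) and none lower, against 6.74% and 10.8% of 10151 genes. In endothelial-like cells 6 of 8 were higher (Il1a, Il1b, Il1rn, Il1r1, Il1r2 and Il1rap) and none lower, against 6.47% and 11.5% of 10098 genes. The summed neutrophil markers went from 1408 to 3368 CPM in mural-like and from 607 to 6990 in endothelial-like cells, and in B-cell-like cells from 124 to 1136, with Ly6g at 0 in sham. The median log2 ratio of the counted members was 2.36 in macrophage/monocyte-like, 0.56 in neutrophil-like and 2.18 in fibroblast-like cells, beside -0.15, -0.01 and -0.06 over all genes counted there.

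The rest of the pathway was read from lists of 49 genes found in the matrices. Of 5 other ligands found, only Il1f9, which encodes IL-36γ, had 20 UMIs. It went from 415 to 1045 CPM in neutrophil-like cells (1.33, 1.14 to 1.53) and is also among the leading genes of the Cxcl3/Spp1 cluster. Of 3 other receptors counted in neutrophil-like cells, 2 were past 2-fold higher (Il18r1 and Il18rap), against 12.7% of all genes there. Il18rap, the accessory chain of the IL-18 receptor, was at 77.9 in sham and 275 in IR (1.82, 1.37 to 2.31). In fibroblast-like cells Il1rl2, the IL-36 receptor, went from 6.91 to 23.8 (1.79, 1.51 to 2.07).

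Among the genes of processing, the inflammasome sensor Nlrp3 was past 2-fold higher in each of these 3 classes. It went from 112 to 465 CPM in macrophage/monocyte-like cells (2.05, 1.99 to 2.12) and from 444 to 1531 in neutrophil-like cells (1.79, 1.60 to 1.98). In fibroblast-like cells it went from 2.25 to 41.3, beside 4.34 and 29.4 in B-cell-like cells. Most of the list stayed within 2-fold, 9 of 11 counted in macrophage/monocyte-like and 5 of 8 in neutrophil-like cells. Over all genes, 8.15% and 12.7% were past 2-fold higher in these 2 classes, and 15.5% and 15.2% lower. Casp1, whose product cuts pro-IL-1β and pro-IL-18, was at 55.5 and 43.2 CPM in macrophage/monocyte-like cells (-0.36, -0.48 to -0.24) and past 2-fold lower in neutrophil-like cells, at 33.1 and 14.5 (-1.19, -1.91 to -0.38). The sham value comes from a class with only 513421 UMIs. Of its 248 cells, 176 lay in the interferon-gene cluster, which had 7 IR cells. Pathway genes are not given by cluster here, so their neutrophil-like ratios compare largely different clusters.

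Of 14 signalling genes, 2 were past 2-fold higher in macrophage/monocyte-like cells, 5 in neutrophil-like and 2 in fibroblast-like cells, and none was lower. Over all genes, 8.15%, 12.7% and 12.1% were past 2-fold higher in these classes and 15.5%, 15.2% and 15.8% lower. The fibroblast-like count of higher genes is near that share. Irak3, a brake on IL-1 receptor signalling, went from 30.2 to 110 CPM in fibroblast-like cells (1.87, 1.74 to 2.0). In neutrophil-like cells Nfkb1, a subunit of NF-κB, went from 79.9 to 346 (2.12, 1.67 to 2.60). In fibroblast-like cells Nfkb1 stayed within 2-fold, at 99.5 and 194 (0.96, 0.88 to 1.04). Myd88, the adaptor of the receptor, named here after its values were seen, was within 2-fold in all 3 classes, at 75.6 and 92.5 in macrophage/monocyte-like, 158 and 97.3 in neutrophil-like and 50.2 and 49.4 in fibroblast-like cells.

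Of 12 feedback and target genes of NF-κB, 9 were past 2-fold higher in macrophage/monocyte-like cells, 10 in neutrophil-like and 8 in fibroblast-like cells, and none was lower. The shares over all genes were 8.15%, 12.7% and 12.1% higher and 15.5%, 15.2% and 15.8% lower. The median log2 ratios of the 12 genes were 1.27, 1.90 and 1.33. In macrophage/monocyte-like cells Ptgs2, the inducible cyclooxygenase, went from 22.5 to 977 CPM (5.44, 5.31 to 5.57), and Il6 from 25.2 to 199.6 (2.99, 2.86 to 3.12). In neutrophil-like cells the chemokine Cxcl2 went from 5415 to 44171 (3.03, 2.97 to 3.08). In fibroblast-like cells Ccl2, the monocyte chemoattractant, went from 487 to 9460 (4.28, 4.25 to 4.31) and Ptgs2 from 83.3 to 436 (2.39, 2.31 to 2.47). Cxcl2 in these cells went from 88.9 to 2006, beside 84.3 and 617 in B-cell-like cells. These genes respond to other signals as well, and what set them was not tested.

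Across 20 sums of a class and library with at least 50 cells, the genes closest in pattern were sought by Pearson's r of log2(CPM + 1), as a description, since points of 1 library share its free RNA and depth. Il1b was closest to Bst1 (r = 0.96), Lilrb4a and Tlr2, Il1rn to Arg2 (0.97), Ccr1 and Trem1, and Il1r2 to Cd300lf and Slc7a11 (both 0.97). Il1a was closest to F10 (0.93) and Il1rn (0.88). Il33 was closest to Tpbg (0.91) and Has1 (0.90), and Il1r1 to Pcdh19 (0.95). Il18 was closest to Mpeg1 (0.94), Il1rap to Dmxl2 (0.89), Il1rl1 to G430095P16Rik (0.86) and Il18bp to Sec14l1 (0.84).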

How the data were processed

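Single-cell RNA sequencing libraries of left ventricular cells (10x Genomics 3′ chemistry) were made and sequenced by the authors, who aligned reads to mm10 and counted them with Cell Ranger. The authors deposited 1 matrix of UMI counts per condition, not normalized, which pools 4 samples with no map from cells to samples. Cells with at least 200 genes and at most 30% mitochondrial UMIs were kept. The upper limit of 2500 genes that the study states was not applied, because it would take out most IR fibroblasts, and is given as an alternative.

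UMIs were scaled to 10000 per cell, log-transformed and reduced to 2000 variable genes, with the members and pathway lists left out, total UMIs regressed out, and 30 components clustered (30 neighbors, Leiden resolution 0.8, leidenalg 0.10.2, scikit-learn 1.9.0). Clusters were named from 125 class markers, of which 4 were missing. Naming thresholds were a score of at least 0.5, and 3 markers each in over 10% of cells. A cluster below that score was named macrophage/monocyte-like where a macrophage or monocyte subtype scored at least 0.5 and no other class scored best. This held for the Ly6c2 monocyte-like, nonclassical monocyte-like and Alox15-led clusters, with class scores of -0.369, -0.117 and 0.102. These thresholds, the second clustering of T-cell-like cells and the split of the Lyve1 cluster (resolution 1.5) were set after the clusters were seen. Doublets were kept in the values given. UMIs were summed per class and library and divided by the class total (CPM). Intervals are exact Poisson for CPM, exact Clopper-Pearson for shares and exact conditional for ratios (scipy 1.17.1), and cover counting error only. A gene was counted as higher or lower past 2-fold with at least 20 UMIs over both libraries, and 0 UMIs were set to 3 for a lower bound. The ratio code was tested on simulated data. Genes named are the 10 members, up to 3 genes of each pathway list and class with the largest ratios past 2-fold in each direction, the gene of each list with the highest CPM, and up to 3 genes most like each member in pattern. Myd88, and Casp1 in macrophage/monocyte-like cells, fall outside this rule and were chosen after their values were seen. Members and lists were chosen with earlier results of these data known. Promoter sequences are from RefSeq (GRCm38.p6), with 10 of 10 members matched.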

Additional observations from a re-analysis of the deposited data

Results flagged for a closer look

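Il18bp, the IL-18 antagonist, was past 2-fold higher in IR in mural-like cells and past 2-fold lower in macrophage/monocyte-like cells, and the log2 ratios differed by 3.0. The mural-like value rests on 11 UMIs in each library, and with 1 library per condition the difference was not tested. The 279 IR barcodes removed by the filters, which no comparison used, held more of 5 genes than the 243 sham barcodes removed. Il1b was at 1242 CPM in the removed IR barcodes and 30.8 in the sham ones, and Il1rn at 186 and 0. Il1r2 was at 107.0 CPM in IR and 0 in sham, Il1a at 40.3 and 0, and Il1r1 at 29.5 and 2.20.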

How the results depend on the processing

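Of 510 values of members under the alternatives, 409 stayed inside the counting interval of the value given, 99 moved outside it and 2 changed sign. Both were over all cells with the limit of 2500 genes, where the log2 ratio of Il1r1 was -0.94 and that of Il33 was -0.48. Within fibroblast-like cells the ratio of Il1r1 was 1.34 without the limit. With the limit its sign there was not among those that changed, but its size is not given here. That of Il33 was 3.01 without the limit and 2.096 with it. Of 337 values of the 36 ratios past 2-fold, 322 stayed past 2-fold in the same direction. The number of members past 2-fold lower in fibroblast-like cells went from 1 to 2, by Il18, with classes set from the marker UMIs of each cell (log2 ratio -1.08) and with high doublet scores removed (-1.66), and the cause was not tested. No cluster could be named endothelial-like at 10% mitochondrial UMIs or at resolution 1.5. The T-cell-like Il1rl1 ratio was 0.09 in the subcluster that held nearly all of its UMIs, while the 59 ILC2-like cells had 586 CPM in sham and 1009 in IR, with 9 IR cells. The Lyve1 cluster's Il1b ratio of -1.76 was -1.14 and -1.55 in its 2 parts at resolution 1.5. No paired analysis was possible because no barcode names its sample. Depth limits the rarer genes: under 20 UMIs over both libraries no ratio was counted.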
